A study of Rattus norvegicus with 9 samples.

Results

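The comparison set gastrocnemius muscle of rats infused with dexamethasone and testosterone together against that of rats infused with vehicle only, and asked which transcripts still differed when the androgen was given alongside the glucocorticoid. Members were the arrays whose titles name either of these treatments, 6 of the 9 arrays of the series, with 3 animals a side and 1 array per animal. All animals were male Wistar rats weighing 250 g, and no source used here gives their age. Control rats received propylene glycol alone from implanted Alzet pumps, which release their contents continuously, over 7 days. Rats of the combination group received dexamethasone at 0.7 mg/kg/day plus testosterone in that vehicle, by the same route and for the same time. For testosterone the samples are labelled 28 mg/kg/day while the series design gives 20 mg/kg/day, a difference that was not resolved. The remaining group had dexamethasone at 0.7 mg/kg/day without testosterone, and its 3 arrays served for the estimate of spread and for values set beside the combination. Of the 31099 probe sets on the array, 57 were Affymetrix controls and 31042 were analysed, of which 18625 had a mean high enough to be tested.

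Dexamethasone is a synthetic agonist of the glucocorticoid receptor, a nuclear receptor that enters the nucleus after binding hormone and turns genes on or off. In skeletal muscle, sustained glucocorticoid exposure is known for loss of fibre mass, with more protein breakdown through ubiquitin ligases and less protein synthesis. Testosterone acts through the related nuclear receptor for androgens, which recognises similar DNA elements, and is known for preserving or building muscle mass.

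Skeletal muscle markers were at a similar level in all 6 arrays, though they do not tell one muscle, or one region of it, from another. The skeletal muscle marker list of 10 genes, among them Ckm, Acta1, Des and Ttn, had a summed intensity of 434721 to 544422 in the vehicle arrays and 461748 to 551916 in the combination arrays. Intensities are signals without a physical unit, and this is a whole-tissue measurement, so fewer cells of a type and less RNA per cell cannot be told apart for any transcript. Of the 6 arrays, vehicle replicates 1 and 3 and combination replicate 1 had been deposited without the scaling to a mean of 500 that the other 3 carry, with means of 113 to 141, and all arrays were brought to a common distribution before the tests. Combination replicate 3 stood apart. Its ratio of 3′ to 5′ signal for the control transcript Gapdh, a sign of RNA integrity, was 6.22, against 4.94 in dexamethasone replicate 3 and 1.06 to 1.17 in the other 7 arrays. Its correlation with the other 5 arrays of the comparison was 0.905 to 0.923, while those 5 correlated with each other at 0.942 to 0.957. Combination replicate 1 stood apart in genes of slow muscle fibres, as given with those genes.

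No probe set separated the combination from vehicle past the threshold, an adjusted p under 0.05 by limma with Benjamini-Hochberg adjustment over the 18625 probe sets. The background is therefore 0% called, 0 of 18625, and the lowest adjusted p was 0.281. At an unadjusted p under 0.05, limma counted 1108 probe sets, 5.95% of those tested, with 581 higher (3.12%) and 527 lower (2.83%) in the combination. All 3 combination arrays lay above all 3 vehicle arrays in 1401 probe sets (7.52%) and below them in 1077 (5.78%). In the same fit, and against the same vehicle arrays, dexamethasone alone gave 168 probe sets past the threshold (0.902%), 91 higher (0.489%) and 77 lower (0.413%), and 2834 (15.2%) at an unadjusted p under 0.05. These last counts depended on single arrays, with 1 to 291 probe sets past the threshold for dexamethasone when any 1 of the 9 was left out, and 37 with the arrays' deposited scaling and spike signals as a block. Differences over 1 on the log2 scale, that is over a doubling or halving, were present in 646 probe sets for the combination and in 1467 for dexamethasone alone. The median difference over all probe sets tested was 0.02 for the combination. A single probe set had a median 95% interval of 0.65 to either side of its log2 difference, before any adjustment for the 18625 probe sets tested. The adjusted threshold was stricter. With 3 arrays a side, differences as large as -2.11 (Ccl2) and 2.62 (Arrdc2) did not pass it, so the count of 0 does not exclude differences of that size.

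**Figure D1:**
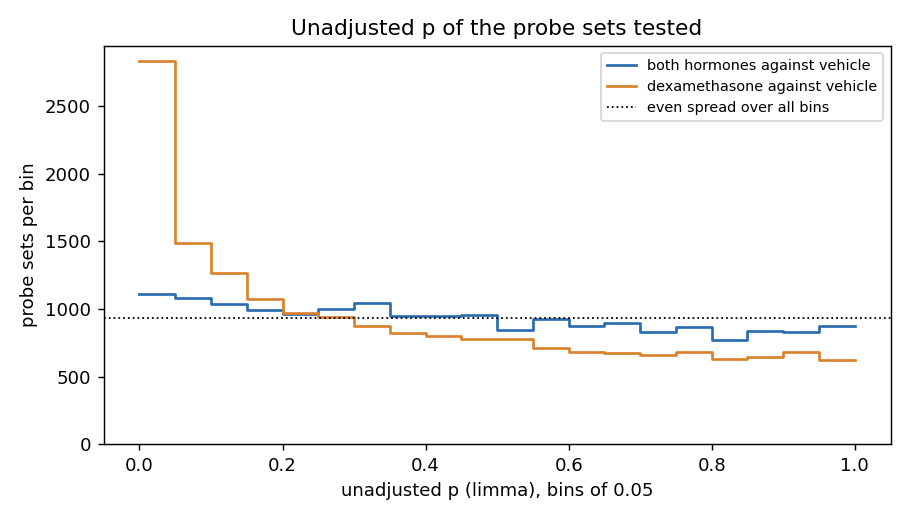
Histogram of limma's unadjusted p over 18625 probe sets in bins of width 0.05 (horizontal axis) with the number of probe sets per bin (vertical axis), for both hormones against vehicle in blue and dexamethasone against vehicle in orange. The lowest bin holds 1108 probe sets in blue and 2834 in orange, and the dotted line marks an even spread over the bins.

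The count of 0 did not vary over 21 of 22 alternative settings, including the removal of each array in turn. It became 3 when limma weighted the arrays by their estimated quality, with Il15 higher by 1.31, Ccl2 lower (-2.29) and a probe set without a gene name lower (-2.36) on the log2 scale, each at an adjusted p of 0.0452. The values that follow therefore describe genes that stood apart in these arrays and did not pass the test, and each difference is of log2(intensity + 16), which understates the change of dim transcripts.

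Among genes higher in the combination, each read at its brightest probe set, the lowest p belonged to Il15, which encodes interleukin-15, a cytokine made by muscle fibres among other cells. Its log2 intensity was 9.98, 9.96 and 9.99 in vehicle replicates 1 to 3 and 11.09, 11.33 and 11.37 in the combination replicates. The 3 combination arrays lay well above the closely grouped vehicle arrays, with a difference of 1.29 (SE 0.18; limma, adjusted p = 0.281), or 2.44-fold. Dexamethasone alone had read 11.87, 11.99 and 11.60, a rise of 1.84 that passed the threshold (limma, adjusted p = 0.0213), so the combination arrays lay between the vehicle and dexamethasone arrays.

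A second kind of transcript stood higher in the combination than in either of the other groups. Ccdc92, a coiled-coil protein of the centrosome region, read 8.73, 9.0 and 8.86 with vehicle, 8.86, 8.79 and 8.95 with dexamethasone, and 9.91 to 10.12 with both hormones. Vehicle and dexamethasone overlapped and the combination lay above both, by 1.15 over vehicle (SE 0.17; limma, adjusted p = 0.281). A separate Ccdc92 probe set stood 1.80 above vehicle with the same adjusted p and, of all probe sets higher in the combination, had the lowest unadjusted p. Aurka, the kinase Aurora A that drives spindle assembly in dividing cells, read 6.10, 6.47 and 5.99 with vehicle, 6.27, 6.36 and 6.45 with dexamethasone, and 7.43, 7.51 and 7.19 with both (difference from vehicle 1.19, SE 0.20; limma, adjusted p = 0.438). Bloc1s2, a subunit of a complex that builds lysosome-related organelles, was highest with both hormones too, at 10.59, 10.41 and 10.86 against 9.25, 9.28 and 9.05 with vehicle, but dexamethasone alone was already at 9.81 to 10.38. For these 3 genes every combination array lay above every array of the other groups, and none of their differences from dexamethasone passed the threshold (limma, lowest adjusted p = 0.0809, for Ccdc92).

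The other 6 of the 10 transcripts of lowest p on the higher side were Pigl, an enzyme of glycolipid anchor synthesis, the phospholipase Plb1, the growth arrest gene Gadd45g, the spindle protein Tacc3, Ddc, the decarboxylase that makes dopamine and serotonin, and Ltb, the cytokine lymphotoxin beta. Their differences from vehicle ran from 1.11 (Pigl) to 1.79 (Gadd45g). Gadd45g read 9.08, 8.04 and 9.51 with vehicle and 10.92, 10.50 and 10.57 with both hormones, so its vehicle arrays were spread over more than a log2 unit and still stayed below the combination. Dexamethasone alone raised Gadd45g by 2.65, Plb1 by 2.22 and Tacc3 by 1.70 past the threshold (limma, adjusted p = 0.0284, 0.0232 and 0.0414), whereas Pigl, Ddc and Ltb did not pass it in that comparison. Dimmer probe sets of Tacc3 and Ddc, both under the filter, stood -0.14 and -0.23 from vehicle with both hormones, and that of Tacc3 stood at -1.65 with dexamethasone.

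On the lower side, Ccl2, the chemokine that draws monocytes into tissue, had the lowest p of all tested probe sets. Its log2 intensity was 7.42, 7.90 and 7.61 with vehicle and 6.10, 5.02 and 5.48 with both hormones. All 3 combination arrays were below all vehicle arrays, by 2.11 on average (difference -2.11, SE 0.29; limma, adjusted p = 0.281), or 4.32-fold. Dexamethasone alone gave 5.56, 5.96 and 5.56, which passed the threshold against vehicle (-1.95; limma, adjusted p = 0.0323) and overlapped the combination arrays.

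Pla2g12a, a secreted phospholipase A2, differed in direction between the hormone groups. It read 12.15, 11.91 and 11.54 with vehicle, 12.80, 12.32 and 12.62 with dexamethasone, and 10.28, 10.87 and 10.13 with both. Both hormones together lay below each of the other groups, by -1.44 against vehicle (SE 0.26; limma, adjusted p = 0.635) and by -2.15 against dexamethasone, the only one of the 20 lowest-p genes whose combination-to-dexamethasone difference passed the threshold (limma, adjusted p = 0.0455). That comparison had 12 probe sets past the threshold in all (0.0644% of those tested), 9 higher (0.0483%) and 3 lower (0.0161%), and none when any 1 of the combination arrays was left out. Gstm4, a glutathione transferase, read 8.76, 8.86 and 9.17 with both hormones against 10.68, 10.02 and 10.60 with vehicle and 9.77 to 10.50 with dexamethasone. Stmn1, which encodes the microtubule-destabilising protein stathmin, read 8.72, 8.95 and 9.28 with both hormones, and the 6 arrays without testosterone all lay at 9.75 or above. Ndrg4 followed the same order, with 7.27, 6.78 and 6.87 in the combination and 7.56 to 8.08 in the other 6 arrays. In each of these 4 genes the combination arrays were below all other arrays, and the differences of Gstm4, Stmn1 and Ndrg4 from dexamethasone did not pass the threshold (limma, lowest adjusted p = 0.131).

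The remaining 5 genes of lowest p on the lower side were Rbp7, a retinol-binding protein, the actin regulator Evl, the carboxypeptidase Scpep1, the elastic-fibre protein Mfap4 and Col4a2, a collagen of basement membranes. Their differences from vehicle ran from -0.89 (Rbp7 and Col4a2) to -1.96 (Mfap4), and a dimmer Evl probe set under the filter stood at 0.20. Over all 20 genes, 10 in each direction, every combination array lay beyond every vehicle array, where 7.65% of 14217 genes were non-overlapping and higher and 6.11% non-overlapping and lower. The 20 were picked for low p, so their separation follows from the choice. Their adjusted p ran from 0.281 to 0.792. The sign of all 20 differences was the same between the arrays deposited unscaled (vehicle 1 and 3, combination 1) and between the scaled pair of replicate 2, with sizes of 0.71 to 2.87.

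**Figure D2:**
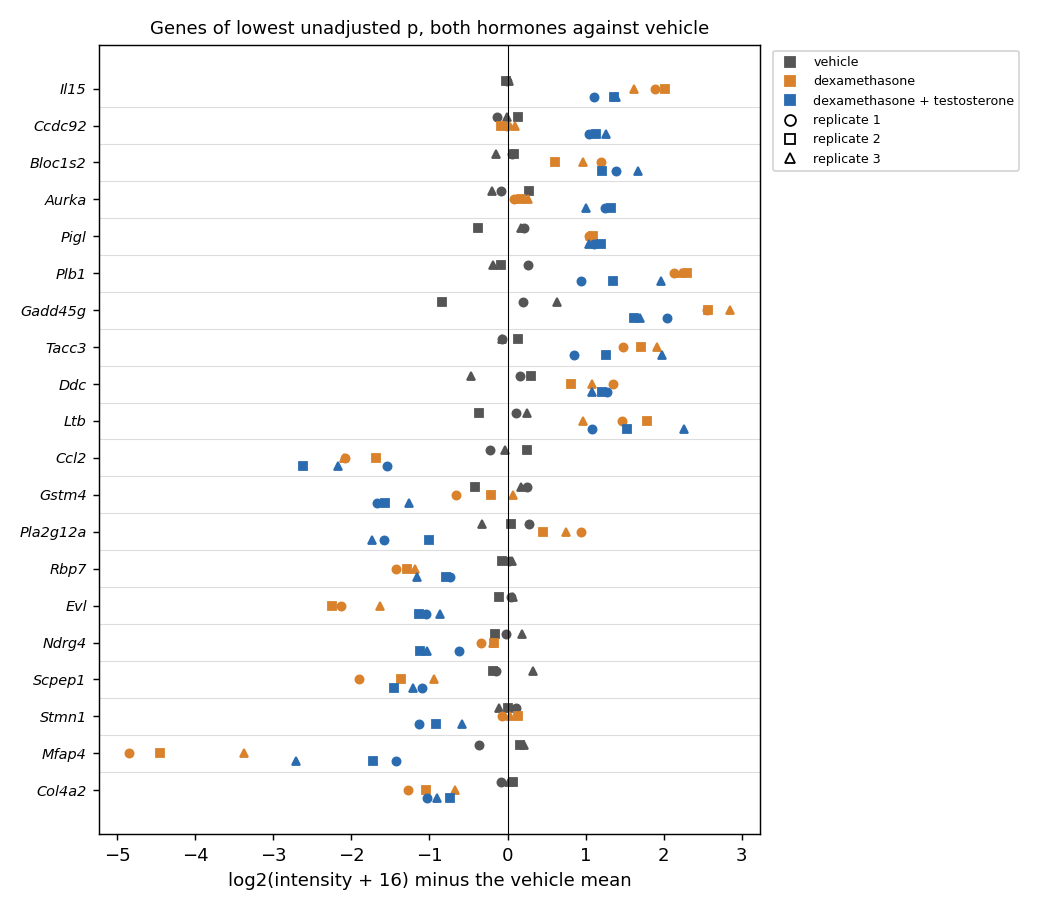
The 20 genes of lowest unadjusted p for both hormones against vehicle, with each array's log2(intensity + 16) minus the vehicle mean on the horizontal axis; grey is vehicle, orange dexamethasone, blue both hormones, and the marker shape is the replicate. The blue points of Ccdc92, Bloc1s2 and Aurka lie above both other groups, those of Gstm4, Pla2g12a, Ndrg4 and Stmn1 below both, and those of Il15, Plb1 and Mfap4 between them.

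Genes that dexamethasone alone changed most were read in the combination arrays. The 8 largest rises and 8 largest falls past the threshold were taken from the dexamethasone comparison, whose vehicle arrays are also those of the combination comparison, so the paired values are given side by side without a measure of their likeness. The median size of the 16 differences from vehicle was 3.43 with dexamethasone and 1.23 with both hormones, and since the genes were picked for their size with dexamethasone a smaller value elsewhere is partly set by the choice. In all 16 the combination arrays lay on the vehicle side of every dexamethasone array, which is also partly set by the choice. The share of all genes whose combination and dexamethasone arrays did not overlap was not counted. In 11 of the 16 the combination arrays still lay beyond every vehicle array, and in the other 5 (Arg2, Prodh, Ddit4, Nmrk2 and Nrep) they overlapped vehicle. The 11 were 5 of the 8 rises and 6 of the 8 falls (backgrounds 7.65% of genes higher and 6.11% lower). None of the 16 passed the threshold between the combination and vehicle (limma, adjusted p = 0.792 to 0.921), nor between the combination and dexamethasone (0.0863 to 0.293).

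Arrdc2, an arrestin-domain gene induced by glucocorticoids, kept the largest difference. It read 7.97, 7.74 and 8.59 with vehicle, 13.31, 12.85 and 12.42 with dexamethasone, and 9.31, 11.11 and 11.74 with both hormones. The combination thus stood 2.62 above vehicle (SE 0.57) where dexamethasone alone stood 4.76 above it, with combination replicate 1 closest to vehicle. Chac1, a glutathione-degrading enzyme of the amino acid stress response, showed the same spread among animals, at 10.35, 11.62 and 12.31 with both hormones against 8.97 to 9.80 with vehicle. Cebpd, a transcription factor of the C/EBP family, read 9.70, 10.17 and 10.76 with both hormones, 8.67, 8.53 and 8.93 with vehicle, and 11.26 to 12.24 with dexamethasone. A dimmer Cebpd probe set stood 1.06 above vehicle with overlapping arrays, and another, under the filter, stood at -0.27.

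Further amino acid and metal genes stood 0.95 (Prodh) to 1.79 (Arg2) above vehicle on average. Prodh, the first enzyme of proline breakdown, read 6.03, 7.66 and 6.23 with both hormones, 5.75, 4.97 and 6.34 with vehicle, and 8.67 to 10.01 with dexamethasone. The metallothionein Mt2A, a metal-binding protein, read 9.73 to 10.09 with both hormones, just above the 9.04, 9.18 and 8.70 of vehicle and far below the 11.84 to 13.74 of dexamethasone. The mitochondrial arginase Arg2 varied most, at 6.92, 7.43 and 9.22 with both hormones against 6.08, 7.07 and 5.06 with vehicle. Ddit4, which restrains the growth kinase mTOR, stood 0.81 above vehicle with both hormones and 3.32 above it with dexamethasone, and Gnmt, a methyltransferase of glycine, 1.28 and 3.77.

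Falls with dexamethasone were also smaller in the combination arrays. Nmrk2, a muscle kinase that makes NAD from nicotinamide riboside, read 13.00, 12.87 and 13.01 with vehicle, 7.37 to 8.5 with dexamethasone, and 13.74, 12.02 and 10.61 with both. Combination replicate 1 was above vehicle and replicate 3 more than 2 log2 units below it, so the mean difference of -0.84 (SE 0.66) describes no single animal. The cell cycle gene Ccnd1, cyclin D1, was steadier, with 8.20, 7.89 and 8.01 in the combination against 9.05, 9.17 and 9.43 with vehicle and 4.61 to 6.96 with dexamethasone. A dimmer Ccnd1 probe set stood -1.09 from vehicle with both hormones and -3.60 with dexamethasone, and its difference between the hormone groups, 2.51, passed the threshold (limma, adjusted p = 0.0209), while another stood -1.78 from vehicle with both hormones. Mfap4 read 8.60, 8.31 and 7.32 with both hormones, 9.66, 10.19 and 10.24 with vehicle, and 5.19 to 6.65 with dexamethasone. Col5a3, Smoc2 and Mest, of the extracellular matrix and of growing tissue, stood -1.29, -0.90 and -1.31 from vehicle with both hormones where dexamethasone gave -3.04, -3.02 and -3.11.

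**Figure D3:**
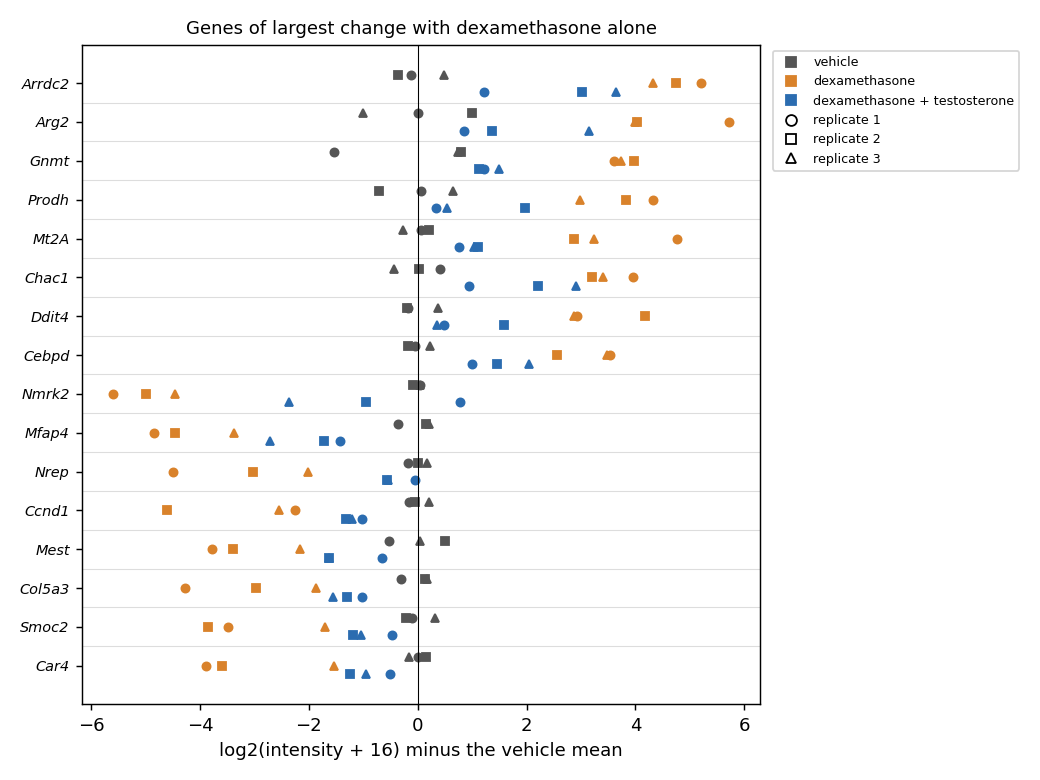
The 8 largest rises and 8 largest falls with dexamethasone alone, as log2(intensity + 16) minus the vehicle mean (horizontal axis) for every array; grey is vehicle, orange dexamethasone, blue both hormones, with marker shape for the replicate. In all 16 genes the blue points lie between the orange points and vehicle or among the vehicle points, except that combination replicate 1 of Nmrk2 lies above vehicle.

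A panel of 18 genes of hormone action and muscle mass was followed gene by gene. None passed the threshold for the combination against vehicle, 2 were higher and 2 lower at an unadjusted p under 0.05 (backgrounds 3.12% and 2.83%), and 4 had passed it with dexamethasone alone (background 0.489% higher; Tsc22d3, Ddit4, Klf15 and Per1). Trim63, the ubiquitin ligase MuRF1 that marks muscle proteins for breakdown, read 12.18, 12.28 and 12.10 with vehicle and 12.21, 12.47 and 11.88 with both hormones. The groups overlapped with a difference of 0.0023 (SE 0.36; limma, adjusted p = 1.00), while dexamethasone arrays read 14.09, 13.25 and 12.55, all above the combination. Fbxo32, the ligase atrogin-1, read 6.86, 6.5 and 6.58 with vehicle and 6.35, 7.52 and 6.72 with both hormones, also overlapping.

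Trim63 is a textbook case of a gene with a glucocorticoid response element and a FoxO element side by side, so its promoter is shown. The 250 bases upstream of its start in RefSeq (rat build GRCr8, chr5:151816986-151817235, plus strand) hold, in capitals, the palindromic steroid receptor pattern of GNACA, 3 bases of any kind and TGTNC (the same letters on both strands; here GAACAATCTGTTC, at bases 219 to 207 before the start) followed directly by the FoxO pattern TTGTTTAC (bases 206 to 199; searched also as GTAAACAA, and not overlapping the first).
Trim63: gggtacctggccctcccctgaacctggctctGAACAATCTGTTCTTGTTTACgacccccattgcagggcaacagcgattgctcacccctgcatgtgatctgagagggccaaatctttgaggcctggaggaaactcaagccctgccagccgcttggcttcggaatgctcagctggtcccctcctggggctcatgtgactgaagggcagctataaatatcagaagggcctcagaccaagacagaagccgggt
Among the 33469 promoter windows of 300 bases in the table, 147 (0.439%) held the first pattern, 369 (1.1%) held the second, and 1 window, that of Trim63, held both. Of the 108 genes named by rule here, 87 had a window and 2 of them held the first pattern (Trim63 and Gnmt). These matches describe letters in a window and were not measured as binding sites.

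Receptor and chaperone genes of the panel gave a mixed picture. The glucocorticoid receptor gene Nr3c1 read 11.67, 11.58 and 11.76 with vehicle and 11.49, 11.70 and 11.88 with both hormones, a difference of 0.02 (SE 0.24), while a dimmer Nr3c1 probe set stood -1.19 from vehicle (SE 0.92) and -1.11 with dexamethasone. Fkbp5, a chaperone of steroid receptors induced by glucocorticoids, read 9.79, 8.93 and 9.04 with vehicle and 9.67, 11.71 and 10.74 with both hormones. Combination replicate 1 was inside the vehicle range and the other two were above it (difference 1.46, SE 0.59; limma, adjusted p = 0.83), and a separate Fkbp5 probe set stood 1.45 above vehicle. Hsd11b1, the enzyme that regenerates active glucocorticoid inside cells, stood -0.83 from vehicle (SE 0.29) with overlapping arrays.

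The immediate glucocorticoid targets of the panel differed among themselves. Per1, a clock gene, read 5.43, 5.58 and 5.30 with vehicle, 6.79, 6.64 and 5.94 with both hormones, and 7.52 to 7.87 with dexamethasone, so the combination lay between and apart from both (difference from vehicle 1.02, SE 0.25; limma, adjusted p = 0.792). Klf15, a transcription factor of amino acid catabolism, had the same order, with 10.52, 10.83 and 11.26 in the combination against 10.16 to 10.47 with vehicle and 11.55 to 12.13 with dexamethasone, though dimmer Klf15 probe sets differed from vehicle by 0.07 and -0.58. Tsc22d3, the anti-inflammatory gene GILZ, read 11.88, 12.20 and 12.10 with both hormones and 11.87, 12.16 and 12.02 with vehicle, overlapping throughout, where dexamethasone alone read 12.91 to 13.12.

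Growth and polyamine genes completed the panel. Amd1, an enzyme of polyamine synthesis, read 11.31, 11.51 and 11.21 with both hormones, inside or above the vehicle values of 11.31, 10.60 and 11.08 and above the 9.37 to 10.62 of dexamethasone. Odc1, the first enzyme of that pathway, was lower than vehicle in all 3 combination arrays (11.23, 11.24 and 10.34 against 11.57, 11.55 and 11.64; difference -0.65, SE 0.25). The growth factor Igf1 differed by -0.25 at its brightest probe set and by -1.76 and -0.85 at 2 others, none past the threshold. Mstn, which encodes the growth inhibitor myostatin, the coactivator Ppargc1a, the transcription factor Foxo1, Rcan2, Fkbp4 and Nr3c2 differed from vehicle by -0.38 to 0.39 with adjusted p of 0.861 or more. Of these, Foxo1 and Mstn were imprecise, with SEs of 1.09 and 0.69. Foxo1 read 8.02, 8.68 and 5.72 with both hormones against 7.39, 7.46 and 8.02 with vehicle. Dimmer Foxo1 probe sets, under the filter, stood 1.09 and -0.46 from vehicle.

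Glucocorticoid receptor targets as a list of 34, 33 of them measured and 30 tested, included 14 genes raised by dexamethasone past the threshold (background 0.489% higher) and 0 past it in the combination. At an unadjusted p under 0.05, 7 of the 30 were higher and 1 lower with both hormones (backgrounds 3.12% and 2.83%), and without any 1 array the 7 became 5 to 9. The median difference from vehicle over the 33 was 0.30 with both hormones, against 0.04 over all 14217 genes, and 1.21 with dexamethasone. By array the median was 0.13, 0.50 and 0.46 in combination replicates 1 to 3, against -0.0045, 0.01 and 0.14 over all genes. On average 20 of the 33 stood above 0 and 13 below, where 7764 of the 14217 genes stood above and 6453 below. In combination replicates 1 to 3, 21, 24 and 24 of the 33 were above the vehicle mean.

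Highest in that list were Arrdc2, Gadd45g, Cebpd, Fkbp5, Cebpb, Cdkn1a and Per1, all 1.02 or more above vehicle. Glul, glutamine synthetase, which makes the glutamine that muscle releases, stood 0.85 above vehicle, with 14.18, 14.79 and 14.81 against 13.83, 13.78 and 13.63, and its dimmer probe sets stood 1.41 and 0.15 above it with overlapping arrays. Cebpb, a transcription factor, showed how the animals differed. Its combination values were 9.91, 11.52 and 11.52 against 9.79, 9.86 and 9.73 with vehicle, so replicate 1 was just above vehicle and the others near the 11.97 to 12.21 of dexamethasone. Errfi1, Pdk4, Nfkbia and Foxo3, which stood 1.12 or more above vehicle with dexamethasone, differed from vehicle by 0.59, 0.46, 0.30 and 0.25 with both hormones. Lcn2 and Dusp1, at -0.69 and -0.48 with dexamethasone alone, were lower than in every vehicle array (-0.94 and -0.39).

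Extracellular matrix genes had the lowest median of the lists after slow-fibre genes. Of 59 listed, 57 were measured, and 54 of the 57 stood below vehicle with both hormones, with a median of -0.80 against 0.04 over all genes. None passed the threshold, 17 of the 56 tested were lower at an unadjusted p under 0.05 and none higher (backgrounds 2.83% and 3.12%), and in 28 of 57 all combination arrays lay below all vehicle arrays (background 6.11% of genes). The medians by array were -0.35, -0.89 and -1.04 in combination replicates 1 to 3, and -0.23, 0.04 and 0.18 in vehicle replicates 1 to 3. Of the 57 genes, 44, 53 and 53 were below the vehicle mean in the combination replicates, and 47, 25 and 8 in the vehicle replicates. Combination replicate 1 thus had no more genes below that mean than vehicle replicate 1. The count of 17 became 7 without vehicle replicate 3, 10 and 11 without combination replicates 3 and 2, and 26 without combination replicate 1, while the median stayed between -1.003 and -0.69 over all 23 alternatives. Within the unscaled arrays the median was -0.37, and within the scaled pair of replicate 2 it was -0.997. Dexamethasone alone had a median of -1.23 in this list, with 8 genes past the threshold and lower (background 0.413%).

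Basement membrane genes were among the members of lowest p. Col4a1, a chain of type IV collagen, read 11.70, 12.07 and 12.34 with vehicle and 11.29, 10.83 and 10.40 with both hormones. All combination arrays were lower (difference -1.20, SE 0.29; limma, adjusted p = 0.792), and a separate Col4a1 probe set stood -1.49 from vehicle. Its partner Col4a2 read 9.41, 9.71 and 9.54 with both hormones against 10.35, 10.51 and 10.46, and lay in the range of dexamethasone alone (9.16 to 9.77). The laminin chains Lamb1 and Lamc1, the linker Nid1 and the heparan sulfate proteoglycan Hspg2 stood -1.15, -0.51, -1.10 and -0.67 from vehicle, each without overlap of the groups.

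Interstitial matrix genes varied more between animals. Fn1, fibronectin, read 11.14, 11.48 and 11.74 with vehicle and 10.98, 9.57 and 9.70 with both hormones. Its combination replicate 1 was just under the vehicle arrays, while replicates 2 and 3 were near the 8.90 to 9.55 of dexamethasone (difference -1.37, SE 0.38). Col1a1, the main chain of fibrillar collagen, read 13.11, 11.94 and 10.65 with both hormones against 12.83, 14.09 and 13.48, so that replicate 1 lay inside the vehicle range. Bgn, the proteoglycan biglycan, went the other way, with its lowest value in replicate 1 (6.15, 9.28 and 8.13 against 9.61, 9.69 and 9.79). Lox, P4ha1 and Thbs2, the 3 genes of the list above 0, differed from vehicle by 0.03 to 0.22.

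Marker lists of the cells that make matrix and line vessels also had medians below 0. The 12 measured fibroblast markers had a median of -0.39, a summed intensity of 37176 to 65564 with both hormones and 57152 to 83756 with vehicle, with 1 of 12 non-overlapping and lower (background 6.11%). The fibroblast median of combination replicate 1, -0.20, lay above that of vehicle replicate 1, -0.29. Several of these markers (Col1a1, Col3a1, Lum, Dcn and Mfap5 among others) are also in the matrix list. The 11 measured endothelial markers had a median of -0.43 and a summed intensity of 5263 to 5757 with both hormones against 7069 to 8188 with vehicle, with 5 of 11 non-overlapping and lower (background 6.11%). Kdr, the endothelial receptor for vascular growth factor, read 9.68, 9.77 and 9.25 against 10.59, 10.30 and 10.40 (difference -0.86, SE 0.24; limma, adjusted p = 0.792), and Pecam1 and Cldn5 stood at -0.26 and -0.21. Dexamethasone alone gave endothelial sums of 5706 to 5856. The part of these cell types in the matrix values was not tested.

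Slow-fibre genes had the lowest median of all lists, -2.13 over 14 measured genes, and 1 animal supplied most of it. Slow, or type I, fibres contract slowly and use their own isoforms of myosin and troponin. The list's medians by array were -4.53, -0.07 and -1.27 in combination replicates 1 to 3. Myh7, the slow myosin heavy chain, read 15.63, 15.26 and 15.31 with vehicle and 9.49, 15.31 and 14.92 with both hormones, so replicate 1 was 5.91 log2 units under the vehicle mean and replicate 2 within its range. Tnni1, slow troponin I, followed with 9.21, 14.34 and 12.93 against 14.63, 14.26 and 14.29, and Atp2a2, the calcium pump of slow fibres, with 10.23, 14.62 and 13.62 against 14.81, 14.44 and 14.40. Over the 11 genes more than 1 below vehicle on average, replicate 1 lay 1.51 to 5.91 below the vehicle mean, replicate 3 0.48 to 2.36 below it, and replicate 2 between 0.80 below and 0.18 above.

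No slow-fibre gene passed the threshold. At an unadjusted p under 0.05, 5 of 14 were lower (background 2.83%) and 1, Pln, higher (background 3.12%). Dimmer Pln probe sets stood -0.23 and, under the filter, -0.15 from vehicle, with overlapping arrays. The 5 became 1 without combination replicate 1 and 12 without combination replicate 2. Without replicate 1 the list median was -0.68. Within the unscaled arrays, which include replicate 1, the median was -4.79, and within the scaled pair of replicate 2 it was 0.01. Myoglobin, Mb, an oxygen store of oxidative fibres, stayed at 15.16, 15.45 and 15.27 against 15.42 to 15.49. No source used here states from which region of the muscle each sample was cut, and the part of sampling in these values was not tested.

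Fast-fibre genes had a median of 0.04 over 17, the same as all genes. Myh4, the myosin of the fastest fibres and among the brightest probe sets, read 15.74, 15.55 and 15.35 with both hormones and 15.44, 15.41 and 15.63 with vehicle, overlapping. Myh2, the myosin of the more oxidative fast fibres, read 13.50, 15.34 and 15.01 against 15.57, 15.46 and 15.49, with replicate 1 again lowest. Myh1, the intermediate fast myosin, was lower in all 3 combination arrays, at 13.98, 13.88 and 13.61 against 14.60, 14.49 and 14.37 (difference -0.66, SE 0.23; limma, adjusted p = 0.83).

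**Figure D4:**
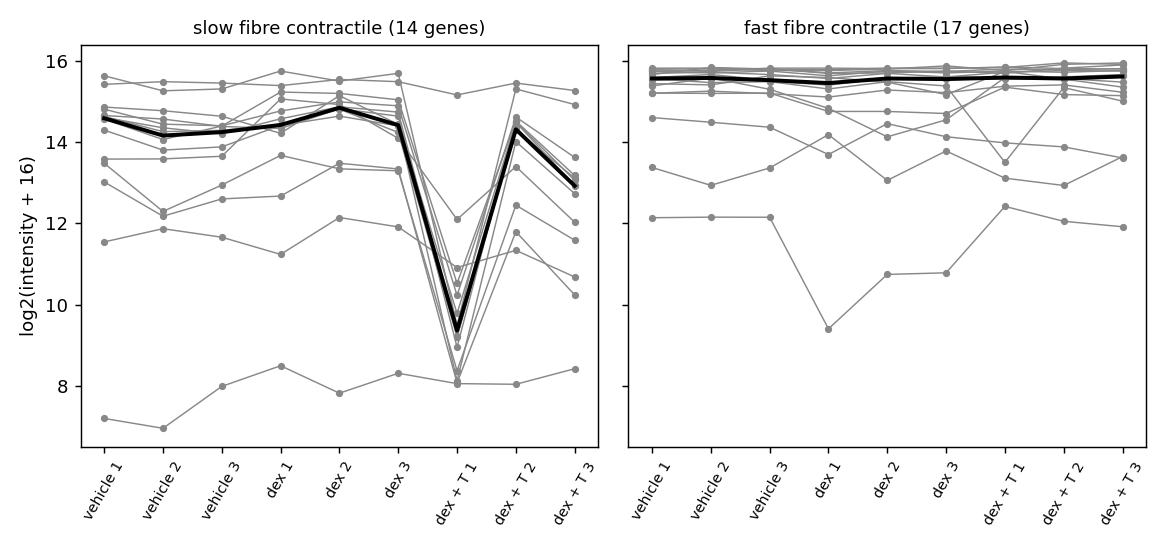
Slow-fibre (left, 14 genes) and fast-fibre (right, 17 genes) contractile genes as log2(intensity + 16) on the vertical axis for the 9 arrays on the horizontal axis, where dex is dexamethasone and dex + T both hormones; each grey line joins the values of 1 gene, the black line is the median, and the order of arrays within a group has no meaning. The slow-fibre median drops in combination replicate 1 and less so in replicate 3, while the fast-fibre median is level.

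Protein breakdown genes, which glucocorticoids are known to raise in muscle, were close to vehicle. The 20 measured genes of the atrophy ligase and FoxO list had a median of 0.10 (0.56 with dexamethasone), and 1, Ctsl, was higher at an unadjusted p under 0.05, a share near the background of 3.12%. Ctsl, the lysosomal protease cathepsin L, read 12.14, 12.23 and 12.14 with vehicle and 12.50, 13.46 and 13.55 with both hormones, against 14.18 to 14.54 with dexamethasone. It lay between the groups, 1.00 above vehicle (SE 0.28; limma, adjusted p = 0.792). Eif4ebp1, a brake on translation, stood 0.71 above vehicle with overlapping arrays where dexamethasone alone raised it by 2.48. In the autophagy and lysosome list (29 measured, median 0.07), Map1lc3a, a component of autophagosome membranes, read 12.51, 12.88 and 13.18 against 12.23, 12.14 and 11.92. The 39 measured proteasome subunits had a median of 0.02 (0.34 with dexamethasone), and 1 of 39 was lower at an unadjusted p under 0.05, a share near the background of 2.83%. It was Psme2, of the immune proteasome activator, at 10.41, 10.45 and 10.55 against 11.02, 11.24 and 11.00.

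The nitrogen, energy and clock lists given here had medians of -0.17 to 0.07, against 0.04 over all genes. Amino acid metabolism had a median of -0.03 over 32 genes, with 3 of 28 tested higher at an unadjusted p under 0.05 (background 3.12%), among them Glul and Oat, the ornithine transaminase, 0.60 above vehicle. Fatty acid oxidation had a median of -0.17 over 40 genes with both hormones and 0.36 with dexamethasone alone. In 6 of its 40 genes all combination arrays lay below all vehicle arrays, and in 0 above (backgrounds 6.11% and 7.65% of genes). At an unadjusted p under 0.05, 2 of the 39 tested were lower (background 2.83%). By array the median was -0.39, -0.05 and -0.07 in combination replicates 1 to 3, and 0.14, 0.0026 and -0.16 in vehicle replicates 1 to 3. Only combination replicate 1 thus lay below the vehicle range. Of the 40 genes, 33, 24 and 26 were below the vehicle mean in the combination replicates, and 8, 19 and 34 in the vehicle replicates. The list's median stayed between -0.28 and -0.093 over 23 alternatives. Its carrier Slc25a20, which brings acylcarnitines into mitochondria, read 9.57, 10.19 and 9.88 against 10.49, 10.66 and 10.48, and Acadl, a long-chain dehydrogenase, 13.00, 13.65 and 13.72 against 14.14, 13.82 and 13.83. In both genes the combination arrays lay below every vehicle and every dexamethasone array, by -0.66 and -0.47 from vehicle, and neither passed the threshold (limma, adjusted p = 0.83 and 0.839). The citric acid cycle and respiratory chain list had a median of -0.06 over 43 genes, glycolysis and glycogen 0.04 over 29, and clock genes 0.07 over 17.

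Signalling and stress lists held single genes that stood apart. In the list of IGF, mTOR and myostatin signalling (44 measured, median 0.04), Fstl1, a secreted follistatin-like protein, read 11.09, 9.97 and 9.80 against 11.43, 11.30 and 12.06 (difference -1.31, SE 0.42). Gamt, which makes creatine, stood -0.52 from vehicle with both hormones and -1.55, past the threshold, with dexamethasone. In the cell cycle list (34 measured, median -0.11), Aurka stood higher while Cdkn1c, an inhibitor of cell division, stood -1.32 from vehicle and the cyclin Ccnb2 -0.70. Bag3, a chaperone partner for damaged filaments, read 11.56, 11.82 and 11.40 with both hormones, below the 11.97 to 12.43 of all 6 other arrays (difference -0.59, SE 0.20; limma, adjusted p = 0.83). Oas1a, an interferon-induced gene, read 7.31, 8.52 and 8.41 against 7.30, 6.63 and 5.95, barely apart at its nearest arrays.

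Immune and blood markers were uneven across the combination animals. The 12 measured macrophage markers had a median of -0.64, and by array 0.23, -1.05 and -0.97, so replicate 1 did not share the low values of replicates 2 and 3. Their summed intensity was 1701 to 4849 with both hormones and 3960 to 4576 with vehicle. Csf1r, the receptor for macrophage growth factor, read 8.36, 7.80 and 8.27 against 8.79, 8.92 and 8.85, and C1qb, a complement component of macrophages, 8.33, 7.10 and 6.29 against 8.14, 8.24 and 8.92. Cd163, a scavenger receptor induced by glucocorticoids, was in the other direction, at 7.66, 7.35 and 7.45 against 7.04, 7.08 and 7.10. The red cell gene Hbb, beta globin, stood -0.80 from vehicle (SE 0.51).

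**Figure D5:**
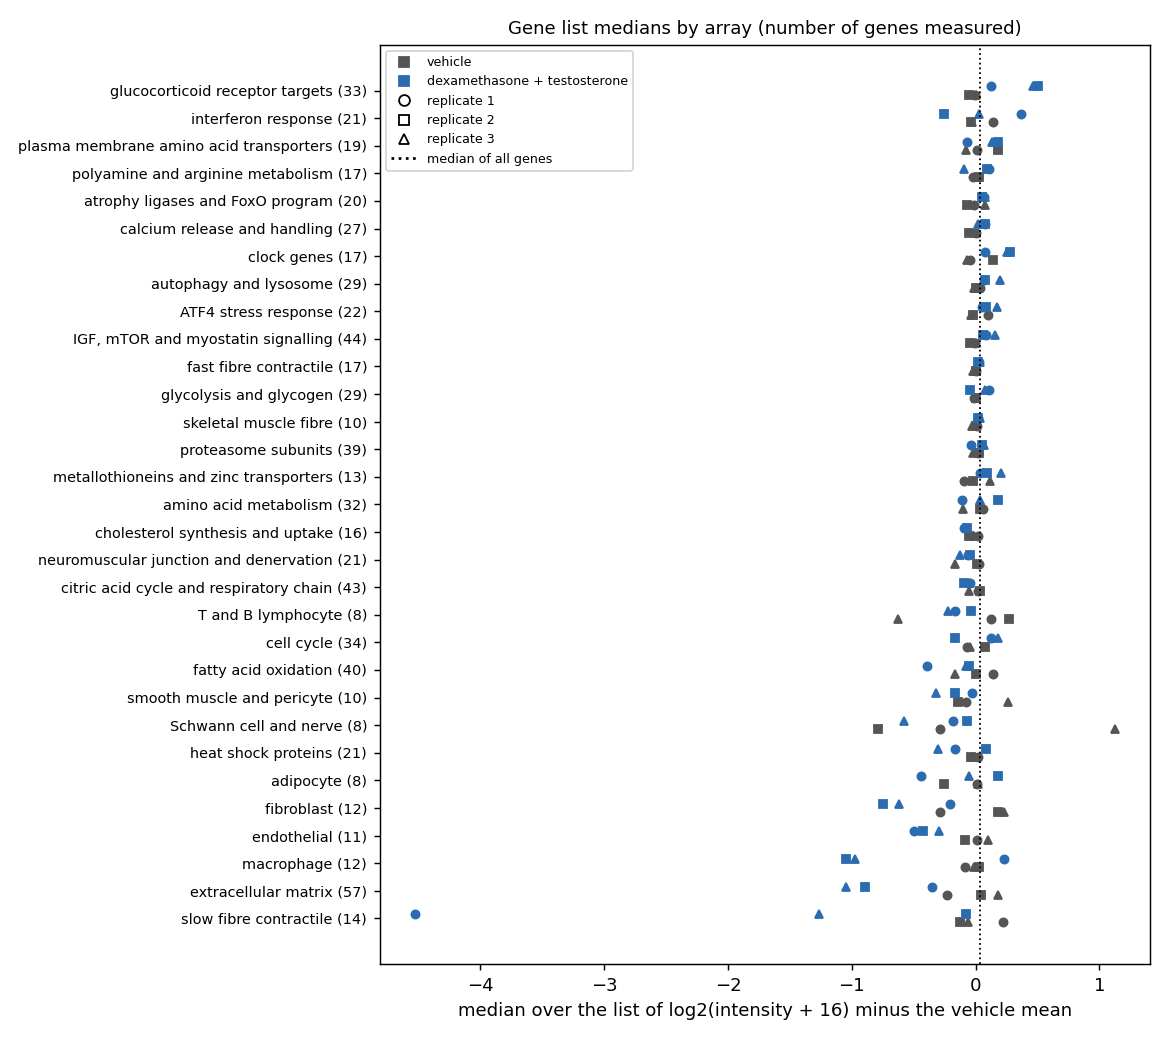
Median over each gene list of log2(intensity + 16) minus the vehicle mean (horizontal axis), for all lists with 8 or more measured genes other than the hormone panel. Grey is vehicle, blue both hormones, marker shape the replicate, and the dotted line the median of all genes, 0.04. Slow-fibre genes spread from -4.53 to -0.07 over the 3 combination arrays, extracellular matrix genes lie at -1.04 to -0.35, and most other lists lie near the dotted line.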

How the data were processed

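RNA of 9 rat gastrocnemius samples was hybridised to Affymetrix rat arrays, 1 per animal. The authors deposited linear intensities per probe set; the signal algorithm is not given in the sources used here. Symbols came from the platform annotation, updated by gene ID to RefSeq GRCr8: 20826 probe sets had 1 symbol, 436 several and 9780 none. Nothing in the labels beyond 1 chip per animal describes hybridisation dates or groups.

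Each array was scaled to a mean of 500 without the lowest and highest 2% of values, 16 was added, and log2 values were quantile normalized. The lower 40% of probe sets by mean were left out. limma 3.58.1 (R 4.3.3) fitted group means over all 9 arrays with moderated variances (lmFit, eBayes) and Benjamini-Hochberg adjustment, threshold 0.05. The number of arrays limits the precision. Per gene, the probe set of highest mean over the 9 arrays was used. Genes below the filter have a difference and no test. Of the named genes, 33 had 57 further probe sets. For the combination against vehicle, 19 of these (8 of them tested) differed in sign from the brightest and none passed the threshold.

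Named were the hormone panel, the 10 genes of lowest p in each direction (since under 5 passed the threshold), per list up to 4 genes past the threshold or otherwise the 3 of lowest p, and the 8 largest rises and falls with dexamethasone. Members of the lists given as examples beyond these, and the genes and probe sets under other observations, were chosen after their values were seen. The 24 pathway and 12 marker lists (806 entries, 739 measured) were written with earlier results of these data known, as were the members of the comparison. The code was tested on simulated data. Alternatives covered the pseudocount, normalization, filter, variance model, array weights, blocks and each array left out.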

Additional observations from a re-analysis of the deposited data

How the results depend on the processing

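Of 108 named genes, 101 kept the sign of their difference from vehicle in all 22 alternatives, and 7 genes did not. The main differences of these 7 ran from -0.26 (Mstn) to 0.21 (Fbxo32), with SEs up to 1.09 (Foxo1). Reversals came with scaling alone (Fbxo32 -0.0093), cyclic loess (Trim63 -0.0053), scaling and spike group as a block (Nr3c1 -0.11, Mstn 0.33, Foxo1 0.37, Tsc22d3 -0.023), array weights (Nr3c1 -0.0011, Mstn 0.18, Foxo1 0.58), and without both arrays of high 3′ to 5′ ratio (Nr3c1 -0.075, Mstn 0.31, Foxo1 0.70). With single arrays left out the differences ran from -0.14 to 0.15 for Trim63, -0.025 to 0.14 for Tsc22d3, -0.076 to 0.12 for Nr3c1, -0.37 to 0.081 for Nr3c2, -0.64 to 0.31 for Mstn, -0.76 to 0.72 for Foxo1 and -0.11 to 0.47 for Fbxo32. The cause was not tested.

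Probe sets past the threshold for the combination against vehicle numbered 0 in 21 alternatives and 3 (1 higher, 2 lower) with array weights, and 0 without each array in turn. The count at an unadjusted p under 0.05 was 1765 with no filter, where more probe sets were tested, 2465 with array weights, and 738 to 1669 with 1 array left out. For dexamethasone against vehicle (168) and the combination against dexamethasone (12), the counts were 50 and 5 with pseudocount 1, 325 and 34 with pseudocount 64, 1 and 0 with no filter, 437 and 73 with a filter at the 60th percentile, 489 and 139 with a trended, robust variance prior, 496 and 19 with array weights, and 368 and 0 without both arrays of high 3′ to 5′ ratio. The second count was 21 with the pseudocount added before scaling and 21 with scaling alone, and the first was 37 with scaling and spike group as a block. Leaving out single arrays gave 1 to 291 and 0 to 36.

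Replicate numbers share some array handling: all of replicate 1 were unscaled, all of replicate 2 were scaled with strong spikes, and dexamethasone and combination replicate 3 share weak spikes and high 3′ to 5′ ratios. Deviations of equal numbers correlated at -0.19, 0.13 and 0.05 between vehicle and combination, at 0.025, 0.28 and 0.10 between vehicle and dexamethasone, and at 0.061, 0.35 and 0.57 between the hormone groups, so not every pair of equal numbers deviated together. With the replicate number as a block, the counts were 0 for the combination against vehicle, 1 for dexamethasone against vehicle and 0 for the combination against dexamethasone. Of the 36 list medians, 21 changed sign in some alternative and 15 did not. Among the 15, the range was -1.003 to -0.69 for extracellular matrix, 0.10 to 0.41 for glucocorticoid receptor targets and -3.06 to -0.68 for slow fibre. With 3 animals a side and a median SE of 0.29, modest differences were not detectable and some large ones did not pass the threshold. The p-values cover the spread between these animals only.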

Other observations

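MHC class II genes, which present antigen on immune cells, gave different readings at different probe sets. RT1-Bb read 7.64, 8.71 and 8.04 with vehicle and 4.16, 5.95 and 5.30 with both hormones at one probe set (difference -2.99, SE 0.68; limma, adjusted p = 0.792), but differed by 0.50 at another. RT1-Ba likewise differed by -3.12 at one probe set and by -0.42, 0.38 and 0.41 at others. RT1-Db1 stood 2.01 above vehicle at one probe set and -0.16 from it at another. RT1-Da, RT1-DMb and RT1-DMa differed by -1.06, 0.33 and -0.0041, and Ciita by -0.46 and 0.47 at its probe sets. The shared class II chain Cd74 read 10.61, 9.79 and 9.74 against 10.49, 11.00 and 10.83. Which probe set follows the transcript was not tested.

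Further genes with combination arrays above all vehicle arrays were Usp2, a deubiquitinase (1.67 and 0.81 at its 2 probe sets), Slc25a25, a mitochondrial carrier for ATP (1.88), and Sult1a1, a sulfotransferase (1.14). Kcnj8, a potassium channel subunit of vessel walls, stood -1.18 from vehicle. A probe set with no gene name in the annotation used read 8.69, 7.97 and 8.21 with vehicle, 8.38, 8.21 and 7.5 with dexamethasone, and 6.55, 5.93 and 5.95 with both hormones (difference from vehicle -2.15, SE 0.31; limma, adjusted p = 0.281). None of these passed the threshold against vehicle, and they were picked for their values.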
